A study of Homo sapiens with 8 samples.

Results

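The genes described here carry glucose into the cell, trap and commit it to glycolysis, and turn its end product into exported lactate. They were the glucose carriers SLC2A1 and SLC2A3, the hexokinases HK1 and HK2, the regulatory enzyme PFKFB3, the platelet-type phosphofructokinase PFKP, the lactate dehydrogenase subunits LDHA and LDHB, and the lactate carriers SLC16A1 and SLC16A3. Members were chosen by name, as the rows of the deposited count table whose gene symbol equals 1 of these 10 symbols. All 10 were found, each in 1 row, among 58870 gene rows. Of the 10, 8 passed the filter on low counts and were tested among 13860 genes, while SLC2A3 and LDHB did not pass it.

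The study sequenced RNA from Panc 10.05, a long-established line grown from a human ductal adenocarcinoma of the pancreas, in 8 libraries. The 4 control libraries came from Panc 10.05 cells labelled control. The other 4, called ELAPOR1 libraries here, came from Panc 10.05 cells labelled as carrying an ELAPOR1 transgene and as overexpressing ELAPOR1, an endosomal and lysosomal membrane protein. The series title places the comparison in the context of the classical/progenitor tumour subtype and of metabolism. The labels name no further treatment in either group. They do not name the vector or promoter of the transgene, what the control cells carried, or whether each group was a clone or a pool. Since nothing says that the replicates were separate cultures, p-values measure the spread between these libraries, which may be technical.

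Glucose enters most cells down its gradient through carriers of the SLC2A family and is trapped when a hexokinase phosphorylates it. Phosphofructokinase then commits the sugar to glycolysis, and it is switched on by fructose 2,6-bisphosphate, the product of PFKFB enzymes. Lactate dehydrogenase, a tetramer of LDHA and LDHB subunits, interconverts pyruvate and lactate, and lactate leaves with a proton through SLC16A carriers that need the chaperone basigin. Pancreatic ductal tumours are known for high glucose uptake and lactate release, and several of these genes are known targets of the hypoxia factor HIF1A and of MYC.

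Library totals ran from 16558600 to 18128757 counts in control and from 13765509 to 17258166 in ELAPOR1 libraries. ELAPOR1, listed under its older symbol KIAA1324, had 1, 1, 4 and 4 counts in the control libraries and 7006, 6422, 5910 and 7368 in the ELAPOR1 libraries, so every library carried the transcript as labelled; reads of the transgene and of the cell's own gene are not separated in the table. The 7 ductal epithelial markers were all expressed, with summed levels of 12008 to 13280 CPM (counts per 1000000 counts, scaled by TMM, a normalisation for library composition) in control and 11236 to 11579 CPM in ELAPOR1 libraries. KRT8 and KRT18, which fell, made up most of that sum. At an edgeR adjusted p under 0.05, KRT7, KRT19 and CDH1 were higher in ELAPOR1 libraries and KRT8, KRT18 and MUC1 lower. These 3 each way stood beside 22.6% of all tested genes higher and 22.1% lower. Of 11 markers of leukocytes, endothelium, fibroblasts, acinar and islet cells, 8 had at most 10 counts in any library, and COL1A2, DCN, PRSS1, CPA1 and INS had none. Their summed level was 87.7 to 93.2 CPM in control and 76.2 to 82.4 CPM in ELAPOR1 libraries, nearly all of it CD68, which is also expressed outside leukocytes. The fibroblast marker COL1A1 was at 3.35 ± 0.67 CPM in control and 2.93 ± 0.17 CPM in ELAPOR1 libraries (SD, n = 4 each). The endothelial marker VWF was at 1.69 ± 0.18 and 0.761 ± 0.14 CPM (SD, n = 4 each).

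ELAPOR1 libraries held more RNA of the main glucose carrier, of both hexokinases, of PFKFB3 and of LDHA, and less of PFKP. The rises were 1.15-fold to 1.35-fold, and PFKP fell to 0.860 of its control level. The lactate carriers SLC16A1 and SLC16A3 were not called, and SLC2A3 and LDHB were at or near 0 in every library. A gene was called at a Benjamini-Hochberg adjusted p under 0.05 in edgeR's quasi-likelihood test over all 13860 tested genes. By that rule 6 of the 8 tested members were called, against a background of 44.7% of all tested genes. The 5 members called higher stood against 22.6% of tested genes called higher, and the 1 called lower against 22.1% called lower. In 6 members the CPM of the control and ELAPOR1 libraries did not overlap, as was the case for 39.2% of tested genes. The median log2 fold change of the 8 tested members was 0.22, beside 0.00087 over all tested genes. The members were chosen with earlier results of these data known, so these counts and this median do not test the set. The changes were small in size. In a test against a 1.5-fold change (edgeR's glmTreat), which 1.55% of tested genes passed, 0 members passed and 0 had an unadjusted p under 0.05. In bulk RNA a change in RNA per cell and a change in the mix of cells cannot be told apart.

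**Figure D1:**
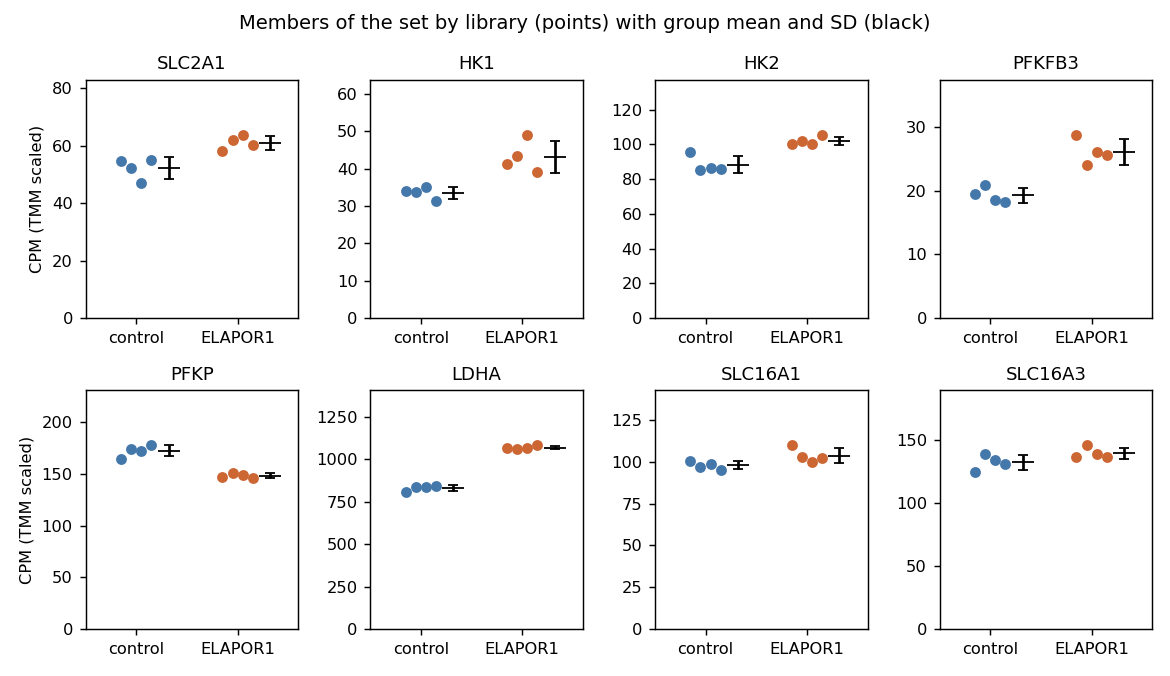
CPM (vertical axes, from 0) of the 8 tested members in each of the 4 control (blue) and 4 ELAPOR1 (orange) libraries, with the group mean and SD in black beside the points. The groups are apart in SLC2A1, HK1, HK2, PFKFB3, LDHA and, downward, PFKP, and they overlap in SLC16A1 and SLC16A3.

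SLC2A1 encodes GLUT1, the carrier of basal glucose uptake (ENSG00000117394.21, chromosome 1, 42925375 to 42959176, minus strand, GENCODE release 29 on GRCh38, as for all gene positions here). Its level was 54.8, 52.3, 46.9 and 54.9 CPM in the control libraries and 58.1, 62.0, 63.9 and 60.5 CPM in the ELAPOR1 libraries. The lowest ELAPOR1 library lay above the highest control library, by less than the spread among the controls. The mean went from 52.2 ± 3.74 to 61.1 ± 2.45 CPM (SD, n = 4 each), a rise of 0.22 on the log2 scale (SE 0.051) or 1.17-fold with a 95% interval of 1.09 to 1.26 (edgeR adjusted p = 5.1e-04).

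SLC2A3 encodes GLUT3, a carrier with a high affinity for glucose (ENSG00000059804.16, chromosome 12, 7919230 to 7936275, minus strand). It had 4 counts in control replicate 2, 4 in ELAPOR1 replicate 3 and 0 in the other 6 libraries. In those 6 libraries, with SLC2A3 set to a floor of 3 counts per library and both genes taken per kb of transcript, SLC2A1 was at least 278-fold to 373-fold higher than SLC2A3. The near-identical gene SLC2A14 had 0 counts in every library, so the low count was not matched by reads given to that copy.

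Among the 13 other hexose carriers on the list, 6 were tested and 1 was called, SLC2A10, which rose from 2.67 ± 0.275 to 4.34 ± 0.545 CPM (SD, n = 4 each, log2 fold change 0.70, edgeR adjusted p = 1.5e-03). Genes that complete a count of 5 or fewer, such as this one, were picked after their values were seen. The 1 call among the 6 stood beside 44.7% of all tested genes called. The median log2 fold change of the 6 was -0.098, and 3 of the 13 had no count in any library. Levels per kb of transcript divide CPM by the longest coding transcript of the gene. Which transcript forms the cells expressed was not determined, so comparisons between genes on this scale are approximate. SLC2A1 stood at 14.2 CPM per kb in control and 16.6 in ELAPOR1 libraries. The next carrier was SLC2A8, an intracellular carrier, at 5.04 and 4.38 CPM per kb. SLC2A13, a myo-inositol carrier, was at 3.30 and 3.27 and SLC2A6 at 2.92 and 3.28, with ranges that overlapped in both groups.

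HK1, the widely expressed hexokinase of the outer mitochondrial membrane (ENSG00000156515.23, chromosome 10, 69269984 to 69401884, plus strand), was at 34.0, 33.6, 35.2 and 31.2 CPM in control and 41.3, 43.3, 49.02 and 39.0 CPM in ELAPOR1 libraries. All 4 ELAPOR1 libraries lay above all controls, with replicate 3 the highest. The mean went from 33.5 ± 1.66 to 43.2 ± 4.29 CPM (SD over 4 libraries), which is a log2 fold change of 0.36 (SE 0.063), or 1.28-fold (edgeR adjusted p = 1.5e-05).

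HK2, the hexokinase induced in many tumours (ENSG00000159399.9, chromosome 2, 74833981 to 74893359, plus strand), was at 95.5, 85.4, 86.4 and 85.6 CPM in control and 100.2, 101.9, 99.99 and 105.5 CPM in ELAPOR1 libraries. The groups did not overlap, although control replicate 1 stood well above the other 3 controls. The rise from 88.2 ± 4.88 to 101.9 ± 2.56 CPM (SD, n = 4 each) was 0.21 on the log2 scale (SE 0.041), or 1.15-fold (edgeR adjusted p = 1.0e-04). With smooth trends against GC content and transcript length removed from each library it was 0.14 (edgeR adjusted p = 1.7e-03). A long non-coding RNA on the other strand, AC019069.1, overlaps HK2 and had 71 to 133 counts, and whether counting used strand is not given in the sources used here.

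The balance between the hexokinases was compared within each library, where no scaling is needed. HK1 was 0.356 to 0.407 of HK2 by counts in control and 0.370 to 0.490 in ELAPOR1 libraries, and the groups overlapped. The mean log2 ratio went from -1.40 ± 0.091 to -1.24 ± 0.17 (SD, n = 4 each), a difference of 0.15 that did not pass a two-sided exact permutation test (p = 0.143, adjusted over the 4 planned pairs 0.286). For 4 libraries against 4 the smallest p of that test is 0.0286. Without ELAPOR1 replicate 3, the highest library, the difference was 0.080.

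Among the other listed glucose-phosphorylating enzymes, ADPGK, which uses ADP in place of ATP, was the 1 gene tested. It stood at 75.3 ± 2.27 CPM in control and 79.5 ± 2.02 CPM in ELAPOR1 libraries (SD over 4 libraries, log2 fold change 0.080, edgeR adjusted p = 0.117). Per kb of transcript, HK2 was at 15.3 CPM per kb in control and 17.7 in ELAPOR1 libraries, HK1 at 8.38 and 10.8, and ADPGK at 29.4 and 31.1. HK3 and HKDC1 did not pass the filter on low counts.

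At the step that commits sugar to glycolysis, 2 of the 3 catalytic subunits, PFKP and PFKM, fell and PFKFB3 rose. PFKFB3, which makes fructose 2,6-bisphosphate and is known for a high ratio of kinase to phosphatase activity (ENSG00000170525.21, chromosome 10, 6144934 to 6254644, plus strand), was at 19.5, 20.9, 18.5 and 18.2 CPM in control and 28.8, 24.0, 26.1 and 25.6 CPM in ELAPOR1 libraries. Every ELAPOR1 library lay above every control. The mean went from 19.3 ± 1.20 to 26.1 ± 1.99 CPM (SD over 4 libraries), which is a log2 fold change of 0.44 (SE 0.073). At 1.35-fold, with a 95% interval of 1.22 to 1.499, this was the highest fold among the 8 tested members (edgeR adjusted p = 7.0e-06).

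PFKP, the platelet-type phosphofructokinase subunit (ENSG00000067057.17, chromosome 10, 3066333 to 3137712, plus strand), was at 164.8, 174.3, 172.5 and 177.4 CPM in control and 147.4, 150.8, 148.9 and 145.5 CPM in ELAPOR1 libraries. The highest ELAPOR1 library was below the lowest control library. The mean went from 172 ± 5.38 to 148 ± 2.27 CPM (SD over 4 libraries), which is a log2 fold change of -0.22 (SE 0.034) or 0.860 of control, with a 95% interval of 0.820 to 0.902 (edgeR adjusted p = 2.1e-06).

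The muscle-type subunit PFKM fell as well, from 135.9 ± 5.12 to 116.9 ± 2.16 CPM (SD, n = 4 each, log2 fold change -0.22, edgeR adjusted p = 7.7e-06). The liver-type subunit PFKL was at 86.4 ± 5.35 and 83.4 ± 2.63 CPM and was not called (log2 fold change -0.050, edgeR adjusted p = 0.385); without control replicate 1 it was called lower (-0.098, edgeR adjusted p = 0.0471). Taken per kb of transcript, PFKP made up 46.4 ± 0.72% of the 3 subunits in control and 45.2 ± 0.28% in ELAPOR1 libraries (SD over 4 libraries), a difference of -1.23 percentage points (two-sided exact permutation p = 0.0286, the smallest possible). PFKL made up 22.1 ± 0.88% and 24.2 ± 0.52% (difference 2.07 points, exact permutation p = 0.0286), and PFKM 31.4 ± 1.42% and 30.6 ± 0.27% (difference -0.838 points, exact permutation p = 0.314). PFKP therefore stayed the most abundant subunit by this measure in every library, at 44.97% or more. Without any 1 of the ELAPOR1 libraries the test of its share gave an exact permutation p = 0.0571.

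Of the 8 other genes of the step, 6 were tested. Of these, 1 was called higher and 3 lower, beside 22.6% and 22.1% of all tested genes. FBP1, the gluconeogenic bisphosphatase that opposes phosphofructokinase, fell from 12.2, 11.4, 13.5 and 13.7 CPM in the control libraries to 6.08, 5.59, 5.47 and 7.04 CPM in the ELAPOR1 libraries. The groups were far apart, and its log2 fold change of -1.07 with SE 0.109 (edgeR adjusted p = 6.5e-10) was past the test against 1.5-fold. TIGAR, a phosphatase acting on fructose 2,6-bisphosphate, rose from 19.1 ± 3.03 to 24.7 ± 2.40 CPM (SD, n = 4 each, log2 fold change 0.38, edgeR adjusted p = 1.8e-03), although its highest control, 22.9 CPM, lay above its lowest ELAPOR1 library, 22.4 CPM. PFKFB2, another enzyme making fructose 2,6-bisphosphate, fell from 68.5 ± 4.09 to 61.3 ± 2.10 CPM (SD, n = 4 each, log2 fold change -0.16, edgeR adjusted p = 5.9e-03). Per kb of transcript PFKFB2 stood above PFKFB3 in both groups, at 9.65 against 4.26 CPM per kb in control and 8.64 against 5.77 in ELAPOR1 libraries.

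LDHA, the lactate dehydrogenase subunit known for favouring the reduction of pyruvate to lactate (ENSG00000134333.14, chromosome 11, 18394388 to 18408425, plus strand), was the most abundant member in every library. It was at 804, 839, 838 and 841 CPM in control and 1066, 1059, 1069 and 1082 CPM in ELAPOR1 libraries. The gap between the groups was many times the spread within either, with control replicate 1 the lowest of all. The mean went from 831 ± 17.5 to 1069 ± 9.35 CPM (SD over 4 libraries), which is a log2 fold change of 0.36 (SE 0.026), or 1.29-fold with a 95% interval of 1.24 to 1.34 (edgeR adjusted p = 1.6e-13). It took 0.0824 ± 0.0016% of all counts in control and 0.108 ± 0.00088% in ELAPOR1 libraries (SD over 4 libraries). Its rank among all genes by counts was 113 to 124 in control and 71 to 75 in ELAPOR1 libraries. The processed pseudogene LDHAP4 held 19.9 to 54.3 counts per library, against 13794 or more for LDHA. How many LDHA reads also match that copy was not tested.

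LDHB, the subunit known for favouring the oxidation of lactate to pyruvate (ENSG00000111716.12, chromosome 12, 21635342 to 21757857, minus strand), had 0 counts in all 8 libraries. With LDHB set to a floor of 3 counts per library, or 0.165 to 0.218 CPM, LDHA per kb was at least 2927-fold to 3079-fold higher than LDHB in control and at least 3151-fold to 3979-fold higher in ELAPOR1 libraries. These bounds cover counting error only and move with library depth, so they are not a change between groups. The pseudogenes LDHBP1, LDHBP2 and LDHBP3 had at most 1 count in any library. The testis subunit LDHC and the related LDHAL6A and LDHAL6B also had 0 counts in every library, and LDHD, the mitochondrial D-lactate dehydrogenase, was at 0.0854 CPM per kb in control and 0.0996 in ELAPOR1 libraries. LDHA was thus the lactate dehydrogenase subunit with more than traces of RNA in these cells.

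Genes on either side of LDHB were read for comparison, a window of 500 kb chosen after the values were seen. Distances run from the RefSeq start of LDHB to the GENCODE starts of the other genes. That RefSeq start lies inside the GENCODE span of LDHB given above, not at its end. It holds 12 protein-coding genes with LDHB itself, of which 6 had 0 counts in every library. The expressed neighbours included GOLT1B, at -156.1 kb from the LDHB start in coordinates, with 1143 to 1416 counts in control and 925 to 1259 in ELAPOR1 libraries, and the DNA helicase gene RECQL, at -156.2 kb, with 1030 to 1235 and 1006 to 1178 counts. On the other side CMAS, a sialic acid enzyme at 388.3 kb, had 927 to 1022 counts in control and 687 to 869 in ELAPOR1 libraries. The genes nearest to LDHB that do not overlap it, GYS2 and KCNJ8, had 0 counts, and both are known as genes of a few tissues. RNA counts do not show whether the LDHB gene itself is present or altered in the line, which was not tested.

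**Figure D2:**
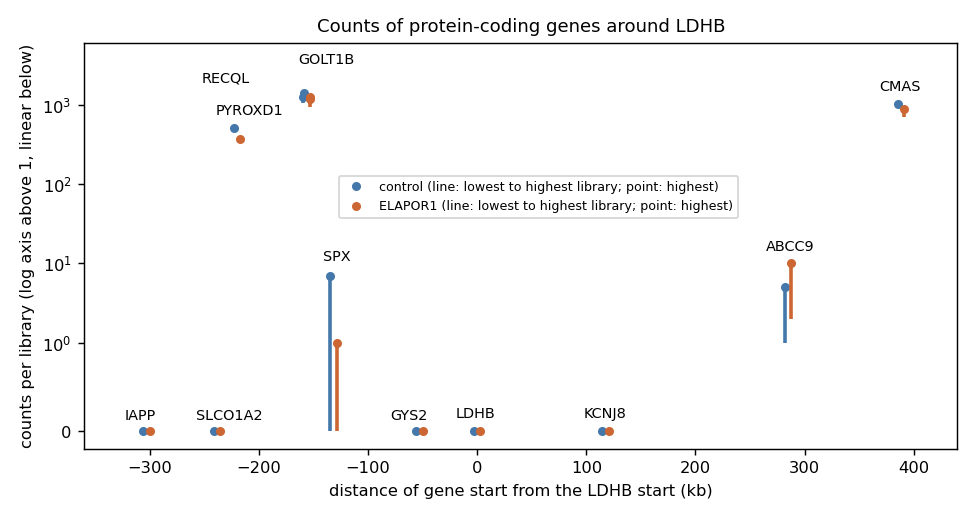
Counts per library (vertical axis, log above 1 and linear below) of the protein-coding genes within 500 kb of LDHB, by the distance of their start from the LDHB start in kb, with lines from the lowest to the highest of the 4 control (blue) or 4 ELAPOR1 (orange) libraries and a point at the highest; AC010197.2, which overlaps LDHB and has 0 counts, is not drawn. The LDHB start used here is its RefSeq start, which lies inside its GENCODE span. LDHB lies at 0 counts between expressed genes such as GOLT1B and CMAS.

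Upstream sequence shows what the 2 lactate dehydrogenase genes and PFKFB3, the member with the highest fold, hold at their starts. The 250 bases before RefSeq starts (GRCh38.p14) were searched for ACGTG on both strands, which is CACGT when read on the printed strand. This is a form of the core of the element bound by HIF1A with ARNT, and other forms were not searched. The palindrome CACGTG, bound by MYC with MAX, contains ACGTG on both strands and so counts as 2 matches. LDHA and PFKFB3 have 2 windows each, of which 1 each held a match and is printed, and the other held 0. The printed LDHA window (chr11:18394313-18394562, plus strand) held 5 matches, 4 of them in 2 palindromes. The printed PFKFB3 window, at an inner start (chr10:6202682-6202931, plus strand), held 1 palindrome, and the single LDHB window (chr12:21657843-21658092, minus strand) held no match. Each is printed 5′ to 3′ on the gene's strand with the matches in capitals.
LDHA: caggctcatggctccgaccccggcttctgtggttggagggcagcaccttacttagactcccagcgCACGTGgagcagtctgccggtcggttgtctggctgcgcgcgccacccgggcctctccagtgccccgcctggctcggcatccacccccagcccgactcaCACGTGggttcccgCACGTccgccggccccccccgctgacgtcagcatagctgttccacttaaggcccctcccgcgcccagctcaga
PFKFB3: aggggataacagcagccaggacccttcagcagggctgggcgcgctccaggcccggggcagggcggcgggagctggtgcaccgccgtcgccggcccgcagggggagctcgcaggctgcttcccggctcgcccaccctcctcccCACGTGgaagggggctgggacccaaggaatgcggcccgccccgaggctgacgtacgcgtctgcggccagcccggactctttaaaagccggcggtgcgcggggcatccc
LDHB: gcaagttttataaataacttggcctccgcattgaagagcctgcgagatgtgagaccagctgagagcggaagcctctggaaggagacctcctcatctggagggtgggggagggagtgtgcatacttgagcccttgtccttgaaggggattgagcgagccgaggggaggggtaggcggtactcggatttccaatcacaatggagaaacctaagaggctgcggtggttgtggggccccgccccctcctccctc
RefSeq windows were found for 8 of the 10 members, 24 windows in all, since several members have more than 1 start. ACGTG on either strand was in 6 of the 24, from HK2, LDHA, PFKFB3, PFKP and SLC16A3, against 18.5% of all 35116 windows of this length. The palindrome was in 3 of the 24, against 6.34% of all windows. The members with a match thus include genes that rose, PFKP, which fell, and SLC16A3, which was not called, while the single SLC2A1 window held none. A match describes letters and is no evidence of binding.

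SLC16A1 encodes MCT1, a carrier that moves lactate in either direction (ENSG00000155380.11, chromosome 1, 112911847 to 112957013, minus strand). It was at 100.7, 97.0, 99.1 and 95.4 CPM in control and 109.9, 103.2, 99.99 and 102.3 CPM in ELAPOR1 libraries. The groups overlapped, since ELAPOR1 replicate 3 lay below control replicate 1. The means were 98.0 ± 2.35 and 103.8 ± 4.24 CPM (SD, n = 4 each), a log2 difference of 0.083 with a 95% interval of 0.0038 to 0.163 (edgeR adjusted p = 0.0823, unadjusted 0.0405). An antisense gene, SLC16A1-AS1, overlaps it and had 143 to 206 counts.

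SLC16A3 encodes MCT4, the low-affinity carrier known for lactate export from glycolytic cells (ENSG00000141526.16, chromosome 17, 82228397 to 82261129, plus strand). It was at 124.6, 138.8, 133.8 and 131.0 CPM in control and 135.9, 145.3, 138.8 and 136.5 CPM in ELAPOR1 libraries. The groups overlapped, and control replicate 1 was the lowest library. The means were 132 ± 5.96 and 139 ± 4.31 CPM (SD, n = 4 each), a log2 difference of 0.075 with a 95% interval of -0.00049 to 0.151 (edgeR adjusted p = 0.1004, unadjusted 0.0514). Both carriers were called when libraries were scaled by total count alone (edgeR adjusted p = 0.0289 for SLC16A1 and 0.0327 for SLC16A3). SLC16A1 was at 0.037 with GC and length trends removed (edgeR adjusted p = 0.414) and at 0.055 without ELAPOR1 replicate 1. SLC16A3 was also called without control replicate 2 (edgeR adjusted p = 0.0475), while without control replicate 1 its difference was 0.042. SLC16A3 overlaps CSNK1D on the other strand, a gene with 2484 to 3166 counts.

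The 95% intervals reach a rise of 1.12-fold in SLC16A1 and 1.11-fold in SLC16A3. Within control libraries the log2 ratio of SLC16A1 to SLC16A3 averaged -0.43 ± 0.089, and within ELAPOR1 libraries -0.42 ± 0.084 (SD over 4 libraries; difference 0.0066, two-sided exact permutation p = 0.886). Per kb of transcript SLC16A3 stood at 27.3 and SLC16A1 at 22.4 CPM per kb in control, and at 28.8 and 23.7 in ELAPOR1 libraries, with no overlap between the 2 genes in either group. SLC16A7, the high-affinity carrier MCT2, was lower, at 2.53 and 2.45 CPM per kb.

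BSG, the basigin chaperone that brings both carriers to the membrane, was called higher. It was at 349.5, 371.7, 370.2 and 390.2 CPM in control and 436.5, 425.6, 411.8 and 436.6 CPM in ELAPOR1 libraries. Every ELAPOR1 library lay above every control, and BSG rose by 0.21 in log2 units, with an SE of 0.032 (edgeR adjusted p = 1.7e-06). The related chaperone EMB was at 137.1 ± 8.74 and 132.8 ± 1.68 CPM (SD, n = 4 each) and was not called (log2 fold change -0.046, edgeR adjusted p = 0.356).

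Of the 14 other monocarboxylate carriers and chaperones, 9 were tested, with a median log2 fold change of -0.046. Of the 9, 3 were called higher and 1 lower, beside 22.6% and 22.1% of all tested genes. SLC16A9, a carnitine and creatine carrier, went from 0.147 ± 0.078 to 2.98 ± 0.80 CPM (SD, n = 4 each, edgeR adjusted p = 3.4e-11), its control mean being under the level of 3 counts per library. SLC16A13 fell from 4.37 ± 0.579 to 2.80 ± 0.433 CPM (SD, n = 4 each, log2 fold change -0.65, edgeR adjusted p = 3.3e-03). SLC16A9, like FBP1, passed the test against 1.5-fold.

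**Figure D3:**
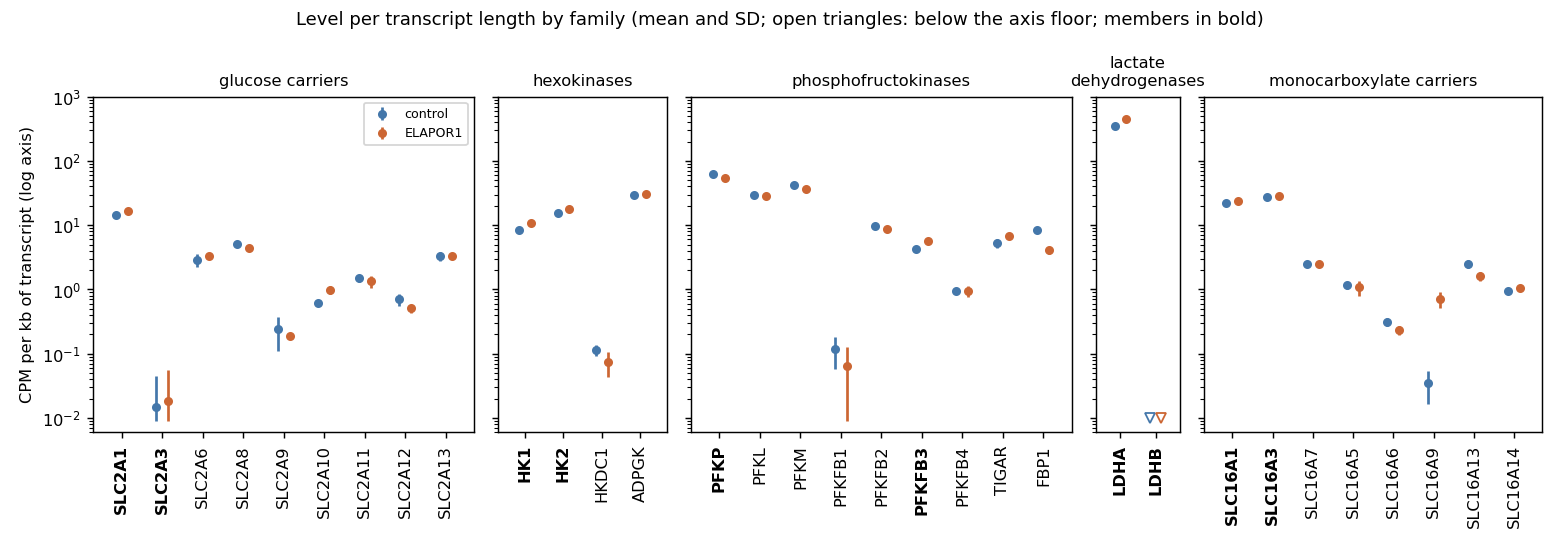
Mean CPM per kb of the longest coding transcript (log axis) with SD over 4 libraries for the members (bold) and other genes of their families in control (blue) and ELAPOR1 (orange) libraries; members are always drawn, other genes shown from 0.1 CPM per kb in either group, error bars stop at the axis floor, and open triangles stand for 0 counts. LDHA lies highest and LDHB at 0, and SLC2A3 lies far below SLC2A1.

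Set side by side per kb of transcript, the members' order was the same in both groups. LDHA came highest at 344 CPM per kb in control and 442 in ELAPOR1 libraries, then PFKP at 62.2 and 53.5. SLC16A3, SLC16A1, HK2, SLC2A1, HK1 and PFKFB3 followed, the last at 4.26 and 5.77. SLC2A3 was at 0.015 and 0.018 CPM per kb and LDHB at 0. Neighbours in this order were apart in all libraries except HK2 with SLC2A1 and SLC2A3 with LDHB, whose ranges overlapped in both groups. These ranges hold the spread between libraries only, and the order under other transcript lengths was not tested. Replicates varied little for LDHA (CV 2.11% in control and 0.874% in ELAPOR1 libraries) and PFKP (3.13% and 1.53%), and most for HK1 in ELAPOR1 libraries among tested members (9.94%), where the median over all tested genes was 5.90%.

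The other enzymes on the way from glucose 6-phosphate to pyruvate were called in both directions. Of 13 such core glycolytic genes 11 were tested, 7 were called higher and 2 lower, beside 22.6% and 22.1% of all tested genes, and their median log2 fold change was 0.21. ALDOA, the main aldolase, rose from 482 ± 18.6 to 656 ± 13.1 CPM (SD, n = 4 each, log2 fold change 0.44, edgeR adjusted p = 2.2e-14). PKM, the pyruvate kinase of most cells, rose from 2109 ± 64.7 to 2740 ± 10.1 CPM (SD, n = 4 each, log2 fold change 0.38, edgeR adjusted p = 4.4e-14). The 2 that fell were isozymes of low level, neuronal enolase ENO2, from 18.4 ± 0.80 to 13.3 ± 0.53 CPM (SD, n = 4 each, log2 fold change -0.47, edgeR adjusted p = 9.2e-06), and ALDOC (log2 fold change -0.27, edgeR adjusted p = 0.0302). GAPDH, often used as a reference gene, was at 4398 ± 156 and 4395 ± 72.2 CPM (SD, n = 4 each, log2 fold change -0.00093, edgeR adjusted p = 0.982).

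Genes of the alternative fate of pyruvate, entry to mitochondria and the pyruvate dehydrogenase complex, were called in both directions. The list of 16 also held the lactate dehydrogenase genes LDHC, LDHD, LDHAL6A and LDHAL6B, which did not pass the filter on low counts. The other 12 were tested, and 1 was called higher and 6 lower, beside 22.6% and 22.1% of all tested genes. The median log2 fold change of the 12 was -0.039. The 7 calls became 4 at an adjusted p under 0.01. Of the listed subunits of the complex, PDHB, DLAT and PDHX were called lower. Their log2 fold changes were -0.16, -0.12 and -0.20 (edgeR adjusted p = 0.0102, 0.0112 and 4.0e-03). The subunit PDHA1 was not called (log2 fold change 0.076, edgeR adjusted p = 0.105). PDP1, a phosphatase that activates pyruvate dehydrogenase, was at 483, 464, 459 and 442 CPM in control and 297, 297, 297 and 304 CPM in ELAPOR1 libraries. The groups were far apart (log2 fold change -0.63, SE 0.030, edgeR adjusted p = 3.7e-18). PDP2, the other such phosphatase, fell from 38.3 ± 2.40 to 33.2 ± 0.89 CPM (SD, n = 4 each, log2 fold change -0.21, edgeR adjusted p = 3.9e-03), and PDK2, a kinase that inhibits the complex, rose from 16.8 ± 0.83 to 20.4 ± 0.40 CPM (SD, n = 4 each, log2 fold change 0.28, edgeR adjusted p = 1.9e-03). PDK4, another inhibiting kinase, fell from 3.13 ± 0.24 to 2.03 ± 0.48 CPM (SD, n = 4 each, log2 fold change -0.62, edgeR adjusted p = 0.0144). PDK1, a kinase induced by hypoxia, was at 10.7 ± 0.77 and 11.8 ± 0.73 CPM (SD, n = 4 each) and was not called (edgeR adjusted p = 0.253). MPC1 and MPC2, which form the mitochondrial pyruvate carrier, were not called (log2 fold changes 0.039 and 0.055, edgeR adjusted p = 0.828 and 0.373).

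**Figure D4:**
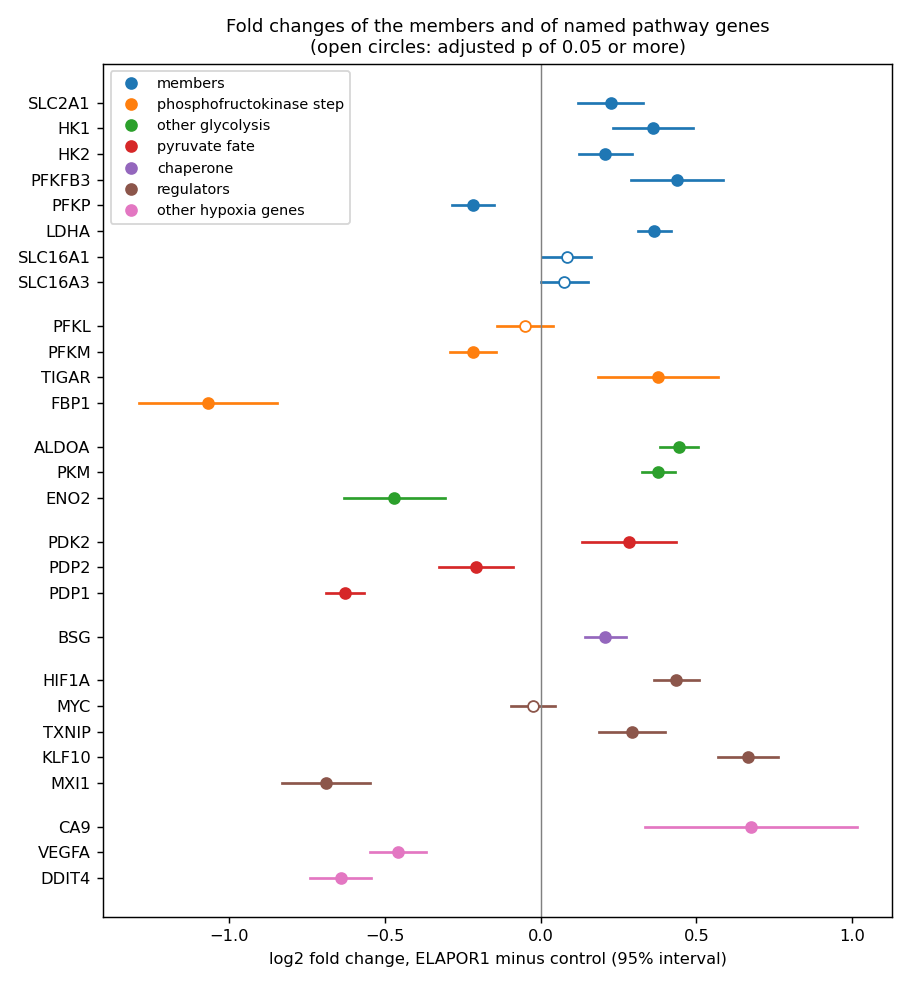
Log2 fold changes (ELAPOR1 minus control, 4 libraries each) with 95% intervals for the 8 tested members and the named genes of other pathway lists, coloured by list; filled circles have an edgeR adjusted p under 0.05 and open circles do not. FBP1 lies lowest at -1.07, and the members lie between -0.22 for PFKP and 0.44 for PFKFB3.

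Known regulators of the members moved in both directions. Of 22 listed, 21 were tested, with a median log2 fold change of 0.092. Of the 21, 8 were called higher and 4 lower (MXI1, ESRRA, MLXIPL and ARNT), beside 22.6% and 22.1% of all tested genes. HIF1A, the oxygen-regulated factor that acts mostly through protein stability, was at 233, 228, 207 and 208 CPM in control and 296, 285, 300 and 302 CPM in ELAPOR1 libraries. The groups did not overlap (log2 fold change 0.43, SE 0.036, edgeR adjusted p = 8.7e-12). MYC was at 172 ± 5.92 and 169 ± 6.41 CPM (SD, n = 4 each, log2 fold change -0.026, edgeR adjusted p = 0.580), while its antagonist MXI1 fell from 31.3 ± 1.27 to 19.4 ± 1.78 CPM (SD, n = 4 each, log2 fold change -0.69, edgeR adjusted p = 5.6e-10). MXD1, an antagonist of the same family, rose from 37.1 ± 1.41 to 41.7 ± 1.90 CPM (SD, n = 4 each, log2 fold change 0.17, edgeR adjusted p = 0.0134). TXNIP, which is induced by glucose and removes GLUT1 from the cell surface, rose from 47.0 ± 3.10 to 57.5 ± 2.16 CPM (SD, n = 4 each, log2 fold change 0.29, edgeR adjusted p = 1.7e-05). KLF10, a zinc-finger factor induced by TGF-beta, rose from 43.3 ± 0.92 to 68.7 ± 2.53 CPM (SD, n = 4 each, log2 fold change 0.67, edgeR adjusted p = 1.0e-13).

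Hypoxia-induced genes outside glucose metabolism were called in both directions. Of 15 listed, 13 were tested, with a median log2 fold change of 0.098. Of the 13, 3 were called higher (CA9, KDM3A and EGLN1) and 5 lower (VEGFA, DDIT4, NDRG1, BNIP3L and ERO1A). Over all tested genes 22.6% were called higher and 22.1% lower. CA9, a carbonic anhydrase that is a common marker of hypoxia, rose from 4.02 ± 0.91 to 6.43 ± 1.45 CPM (SD, n = 4 each, log2 fold change 0.67, edgeR adjusted p = 1.2e-03). VEGFA, the angiogenic growth factor, fell from 79.5 ± 2.91 to 57.9 ± 2.09 CPM (SD, n = 4 each, log2 fold change -0.46, edgeR adjusted p = 2.1e-10). DDIT4, a stress-induced inhibitor of mTORC1, fell from 67.2 ± 1.80 to 43.0 ± 1.69 CPM (SD, n = 4 each, log2 fold change -0.64, edgeR adjusted p = 3.6e-13). CA12 and BNIP3, both known as hypoxia-induced genes, had 0 counts in all 8 libraries.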

How the data were processed

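RNA was sequenced from 4 control and 4 ELAPOR1 libraries. The authors deposited 1 table of expected counts per gene, and the submitters' processing notes list cutadapt, STAR, RSEM, DESeq2 and hg38 without versions. RSEM divides reads that match several genes, and 15.01% of nonzero values were not whole (tolerance 1e-06). Annotation release and strand setting are not given in the sources used here; 58597 of 58870 gene identifiers matched GENCODE release 29 (GRCh38), which gave positions and lengths.

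Expected counts were rounded, and edgeR 4.0.16 (R 4.3.3) was run on them (filterByExpr, TMM with factors of 0.989 to 1.01, robust quasi-likelihood F test, two-sided, no covariate), with Benjamini-Hochberg adjustment over 13860 genes. Values per library were compared by two-sided exact permutation. CPM per kb uses the longest coding transcript. Planned log2 ratios of LDHA to LDHB and SLC2A1 to SLC2A3 (0.5 added to counts) are not reported, because the partner had 4 counts or fewer. The code was checked on simulated counts.

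The members and lists were chosen with earlier results of these data known. Named genes were the members, ELAPOR1, BSG, HIF1A, MYC and TXNIP, and per list the 3 called genes with the largest change among those at 5 CPM or more. For copies, SLC2A14 and any with a mean of at least 10 counts were named. Some listed genes are not reported here. Alternatives were other scalings, DESeq2 1.42.0, limma-voom (limma 3.58.1), filters, a threshold of 0.01, a test against 1.5-fold, removal of GC content and length trends (splines with 5 degrees of freedom), a replicate block and each library left out. Depth was 13765509 to 18128757 counts per library, so 3 counts equal 0.165 to 0.218 CPM. The common biological coefficient of variation was 0.0401. Plots used matplotlib 3.10.9.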

Additional observations from a re-analysis of the deposited data

Results flagged for a closer look

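Of 72 groups of 4 libraries examined, 6 had a library far from the other 3 (its gap to the nearest over Dixon's critical share of the range), where chance gives about 3.6. Of these, 4 were in control replicate 1, and 2 of the 4 are LDHA on different scales and so not separate. HK2 was at 95.5 CPM there and at 85.4 to 86.4 in the other controls. LDHA was at 804 CPM there against 838 to 841, and at 0.0800% of all counts against 0.0829 to 0.0833%. PFKL made up 20.8% of phosphofructokinase there against 22.5 to 22.6%. Without that library the log2 fold change was 0.24 for HK2 (edgeR adjusted p = 7.9e-07) and 0.34 for LDHA (edgeR adjusted p = 3.3e-19). TXNIP was at 42.4 CPM in control replicate 2 against 48.0 to 48.96 in the other controls, and PDP1 at 303.8 CPM in ELAPOR1 replicate 4 against 297.1 to 297.5 in the other ELAPOR1 libraries.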

How the results depend on the processing

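The 6 called members kept their direction and call under 18 of the 19 alternatives. The exception was the test against 1.5-fold, which left the fold changes (SLC2A1 0.22, HK1 0.36, HK2 0.21, PFKFB3 0.44, PFKP -0.22, LDHA 0.36) at an adjusted p of 1 and called 215 genes, 0 members and 3 other pathway genes, against 6193, 6 and 45. Its own null, a change within 1.5-fold, covers folds of this size. Elsewhere 4682 to 6491 genes and 6 to 8 members were called. SLC16A1 was called with total count scaling (0.10, edgeR adjusted p = 0.0289), and was at 0.037 with GC and length trends removed (edgeR adjusted p = 0.414) and 0.055 without ELAPOR1 replicate 1. SLC16A3 was called with total count scaling (0.097, edgeR adjusted p = 0.0327), with GC and length trends removed (0.080, edgeR adjusted p = 0.0367) and without control replicate 2 (0.10, edgeR adjusted p = 0.0475); leaving out 1 library gave 0.042 to 0.10. PFKL, not called, was at 0.0012 with GC and length trends removed and was called without control replicate 1 (-0.098, edgeR adjusted p = 0.0471). The SLC16A1 to SLC16A3 ratio difference ran from -0.032 to 0.047 with 1 library left out, on either side of 0. The PFKP share difference ran from -1.45 to -0.89 points, with an exact permutation p of 0.0571 without any 1 ELAPOR1 library. With median transcript lengths, an alternative chosen after seeing the data, it was -1.52 points. The cause of these shifts was not tested. Scaling moved the median of all genes by at most 0.0213 (log2). Of 20 other genes, ELAPOR1 and those that the naming rule took from the pathway, 19 kept direction and side outside the 1.5-fold test, under which 2 (ELAPOR1 and FBP1) kept and 16 lost their call. ELAPOR1 has no value with at least 10 counts required in every library, and genes named outside that rule were not followed singly. With the replicate number as a block 5926 genes, 6 members and 45 pathway genes were called, and the PFKP share difference of -1.23 points had a sign-flip p of 0.125, the smallest possible. Same-numbered libraries had correlations of -0.025 to 0.038 in their deviations and not each was closest to its own number. No pairing by number was thus seen, though these correlations cannot show that same-numbered libraries were handled apart. Depth limits SLC2A3 and LDHB to statements about 3 counts per library.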
